A study of Homo sapiens with 15 samples.

Results

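The integrin subunit genes described here are 10 protein-coding genes, ITGA2, ITGA3, ITGA5, ITGA6 and ITGAV for the alpha subunits and ITGB1, ITGB3, ITGB4, ITGB5 and ITGB8 for the beta subunits, of 19798 annotated in GENCODE on hg19. They were taken from a list of names, whose rule uses no measured value but which was drawn up with earlier results of these data known, and their chromatin was taken from ChIP-seq peak regions. A peak of H3K4me3 (trimethylation of lysine 4 of histone H3, a mark of active promoters) belonged to a gene when it lay within 2 kb of one of its transcription starts, which are those of the protein-coding transcripts in the basic set of GENCODE. A peak of H3K27ac (acetylation of lysine 27, a mark of active promoters and enhancers) belonged to a gene when it lay within 100 kb of its start and no other protein-coding gene started nearer. By this rule the genes held 10 of the 22572 H3K4me3 peaks, 1 peak for each gene, and 73 of the 62195 H3K27ac peaks, from 2 at ITGB4 to 12 at ITGA2.

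The study compared MDA-MB-231 (referred to as Par), a claudin-low and triple-negative human breast cancer cell line, with the sub-populations LM2 and BrM2, which were selected from it in mice and labelled as its lung and brain metastatic variants. All 3 lines are established, untreated cultures that were grown in 10% serum and fixed in 1% formaldehyde, so the differences below are between cultured populations and not between tumors. Each line had 2 biological replicates for each mark, which gives 12 libraries, and the 3 input samples were not analysed here. Because each library pools many cells, a lower signal in fewer cells and a lower signal per cell cannot be told apart.

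Integrins are cell surface receptors made of 1 alpha and 1 beta subunit that attach cells to the surrounding matrix and carry signals in both directions across the membrane. The beta subunit ITGB1 pairs with many alpha subunits, among them ITGA2 (collagen receptor), ITGA3 and ITGA6 (laminin receptors) and ITGA5 (fibronectin receptor). ITGAV pairs with ITGB3, ITGB5 or ITGB8 to bind ligands that carry the RGD sequence, such as vitronectin or latent TGF-beta, and ITGB4 pairs with ITGA6 in the hemidesmosomes that hold epithelial cells to laminin. In carcinoma cells these receptors are known for their parts in invasion, survival and growth at distant sites.

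The sequences that lie immediately upstream of the start were read for all 10 genes, and 4 of them are shown because the H3K4me3 peak over them either differed between the lines with the replicate block described below (ITGB5 and ITGB8), carried the most reads among the beta subunits (ITGB1) or varied little (ITGA3). Each is 250 bases long, is written 5′ to 3′ on the strand of its gene and ends at the base before the most upstream start, as defined above, in the peak. Capitals mark matches to GGGCGG, the GC box, on either strand (GGGCGG or CCGCCC), and in ITGA3 also 1 match to CCGGAAG, an ETS-type motif. The positions on hg19 are chr3:124606213-124606462 (minus strand) for ITGB5, chr7:20370075-20370324 (plus strand) for ITGB8, chr10:33247209-33247458 (minus strand) for ITGB1 and chr17:48133224-48133473 (plus strand) for ITGA3. None of these windows holds an exon base of a protein-coding transcript in the basic set. The whole annotated extent of ITGA3 begins at 48133332, inside its window.
ITGB5: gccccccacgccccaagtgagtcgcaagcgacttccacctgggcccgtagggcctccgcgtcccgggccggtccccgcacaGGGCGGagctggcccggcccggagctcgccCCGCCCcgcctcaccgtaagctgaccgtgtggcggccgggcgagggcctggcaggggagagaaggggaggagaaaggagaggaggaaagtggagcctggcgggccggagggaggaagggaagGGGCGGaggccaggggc
ITGB8: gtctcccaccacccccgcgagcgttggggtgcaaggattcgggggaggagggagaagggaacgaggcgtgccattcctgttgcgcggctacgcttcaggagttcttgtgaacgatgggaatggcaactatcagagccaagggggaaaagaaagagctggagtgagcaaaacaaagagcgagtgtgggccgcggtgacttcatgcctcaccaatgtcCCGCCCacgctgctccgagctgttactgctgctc
ITGB1: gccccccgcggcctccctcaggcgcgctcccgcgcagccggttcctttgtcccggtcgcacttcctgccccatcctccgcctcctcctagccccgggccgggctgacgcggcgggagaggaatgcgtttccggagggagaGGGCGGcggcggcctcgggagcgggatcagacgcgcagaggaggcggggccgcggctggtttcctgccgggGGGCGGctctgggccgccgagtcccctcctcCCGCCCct
ITGA3: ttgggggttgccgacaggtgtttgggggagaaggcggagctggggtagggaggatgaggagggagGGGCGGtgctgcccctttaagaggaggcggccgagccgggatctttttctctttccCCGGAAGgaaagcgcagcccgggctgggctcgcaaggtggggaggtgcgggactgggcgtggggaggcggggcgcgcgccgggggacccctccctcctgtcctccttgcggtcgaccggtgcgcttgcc

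All 10 integrin promoters held at least 1 GC box in this window, against 69.5% of 13165 promoters with an H3K4me3 peak. None held TGANTCA, the AP-1 motif (3.43% of all promoters), or ACATTCC, the TEAD motif (1.75%), on either strand. A TATA box (TATAAA) was found at ITGA6 and at no other integrin promoter (4.97% of all), as was the E-box CACGTG (8.34% of all). The ETS-type motif was found at ITGA3 (14.3% of all). The windows were rich in G and C, with a median of 71.8% against 65.2% over all promoters, and the share was lowest at ITGA6 (57.6%) and ITGB8 (59.6%). The ratio of observed to expected CpG was 0.73 in the median against 0.82 over all promoters, lowest at ITGA5 (0.39) and highest at ITGB3 (0.94). These are matches of letters in a short window and say nothing on which factors are bound.

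The libraries held 3489607 to 9839629 counts in H3K4me3 peaks and 1994996 (BrM2 replicate 2) to 6450028 in H3K27ac peaks, and values below are counts scaled to these totals, as CPM (counts per 1000000 counts), unless another unit is given. As a check of the cell type, the promoters of the mesenchymal genes VIM (199 to 250), CD44 (103 to 193), ZEB1 (205 to 264) and AXL (115 to 329) carried H3K4me3 in all 6 libraries. All 6 luminal and epithelial markers also had a promoter peak. CDH1 held 2.01 to 8.03, CLDN3 8.95 to 15.3, PGR 1.15 to 20.4 and ESR1 6.88 to 39.5. EPCAM held 36.4 to 72.5 and CLDN4 held 3.21 to 72.98, each summed over 2 peaks. All these values lay below the lowest mesenchymal one, but EPCAM in every line and CLDN4 in Par were not near the floor. A promoter peak alone thus did not set the 2 groups of markers apart. Of the 6 markers, 3 differed between lines. ESR1 was higher in LM2 (2.52 on the log2 scale) and BrM2 (1.62) than in Par. CLDN4 was lower in both (-3.44 and -2.04), and PGR was higher in BrM2 than in LM2 (2.50). Whether these differences have a part in the integrin values was not tested.

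At the promoters, the 10 integrin genes carried H3K4me3 in every library of every line. Their peaks were longer than usual, with a median of 3.26 kb against 2.25 kb over the 12975 peaks at promoters, and 9 of 10 were above that median. The peak of ITGA3 (chr17:48132123-48142055) was 9.93 kb long, the 99.8th percentile, and that of ITGB3 (chr17:45330742-45332226) was the shortest at 1.49 kb. Per kb of peak, which allows genes to be compared, the integrin promoters had a median of 31.9 CPM against 24.5 over the same 12975 peaks, and 8 of 10 lay above. ITGB5 was highest (44.1 CPM per kb over the 6 libraries), followed by ITGB3 (39.1), ITGB1 (37.2), ITGA6 (35.2), ITGB8 (32.5), ITGAV (31.4), ITGA5 (28.8), ITGA3 (26.6), ITGA2 (21.8) and ITGB4 (18.5). Only from ITGA5 to ITGA3 and from ITGA3 to ITGA2 did all 6 libraries give the same order of neighbours, so the other neighbours in this order did not differ beyond the spread of the libraries.

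Few differences in integrin promoter H3K4me3 were detected between the lines. With DESeq2 and no account taken of replicate number, none of the 10 promoters passed an adjusted p of 0.05 in any of the 3 comparisons, while 2.51%, 3.61% and 3.18% of all peaks tested did (LM2 against Par, BrM2 against Par and BrM2 against LM2). At an unadjusted p of 0.05, 0, 0 and 1 of the 10 passed (8.11%, 10.5% and 10.9% of all peaks), and edgeR without the block also called 0 in each (1.61%, 3.07% and 2.81% of all peaks). Libraries with the same replicate number deviated together in all 3 lines, so the replicate number was also fitted as a block. Replicate 1 was also the shallower H3K4me3 library in every line (3489607 to 4581712 counts, against 6714331 to 9839629 in replicate 2). Replicate number and depth therefore cannot be told apart here. With the block, 1, 2 and 4 of the 10 promoters passed, against 14.4%, 17.7% and 22% of all peaks, and edgeR with the block called 2, 3 and 6, against 26.2%, 33.3% and 38.6%. Beyond the calls of DESeq2 with the block, edgeR with the block called ITGB3 in LM2 against Par, ITGB4 in BrM2 against Par and ITGA6 and ITGAV in BrM2 against LM2, and calls with the block below are those of DESeq2. The median log2 difference of the 10 promoters was 0.17 in LM2 against Par (0.02 over all peaks), -0.07 in BrM2 against Par (-0.02) and -0.23 in BrM2 against LM2 (-0.04), all without the block.

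**Figure D1:**
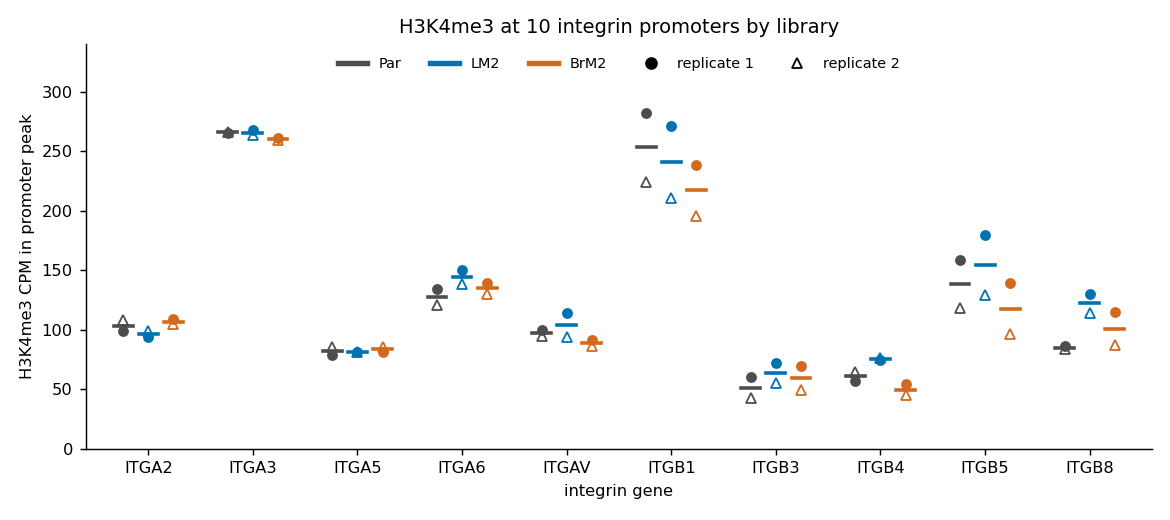
Promoter H3K4me3 of the 10 integrin genes in CPM (vertical axis) by gene (horizontal axis), with 1 point per library (circles, replicate 1; triangles, replicate 2) and bars for the mean of each line. At ITGB4 the LM2 libraries (74.4 and 76.0) lie above both Par libraries and the BrM2 libraries (54.1 and 45.2) lie below them, while at ITGB1, ITGB3 and ITGB5 replicate 1 lies above replicate 2 in all 3 lines.

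Of the receptors for laminin, ITGB4, the hemidesmosome beta subunit, showed the largest range. Its H3K4me3 peak (chr17:73716513-73719869) held 57.3 and 64.6 CPM in Par, 74.4 and 76.0 CPM in LM2 and 54.1 and 45.2 CPM in BrM2. It was the only integrin promoter at which the libraries of all 3 lines were separated, in the order LM2, Par, BrM2. The log2 difference of BrM2 from LM2 was -0.69 (SE 0.34, adjusted p = 0.435 in DESeq2) without the block and -0.70 (SE 0.16, 95% interval -1.02 to -0.39, adjusted p = 0.000214) with it. The call at ITGB4 held with the block and size factors set within 5 Mb windows (-0.76, adjusted p = 0.000255) or library totals as size factors (-0.61, adjusted p = 0.00287), but was lost without LM2 replicate 1, LM2 replicate 2 or BrM2 replicate 2 (highest adjusted p = 0.198). The differences of ITGB4 from Par did not pass with the block either, at 0.32 in LM2 (adjusted p = 0.182) and -0.38 in BrM2 (adjusted p = 0.101).

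ITGA6, the alpha partner of ITGB4, did not follow it to the same extent. Its promoter peak (chr2:173291718-173295565) held 134 and 121 CPM in Par and 151 and 138 in LM2, with 139 and 130 in BrM2. In CPM the LM2 libraries lay above both Par libraries, and the log2 difference was 0.21 with the block (SE 0.11, adjusted p = 0.217). BrM2 differed from Par at ITGA6 by 0.02 with the block (adjusted p = 0.938) and from LM2 by -0.19 (adjusted p = 0.221).

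ITGA3, whose product pairs with ITGB1 as a laminin receptor, varied little across the lines. It held 266 and 266 CPM in Par, 268 and 263 CPM in LM2 and 261 and 259 CPM in BrM2. In CPM the BrM2 libraries lay below all 4 others, by a small margin. With the block the log2 differences at ITGA3 were 0.03 in LM2 against Par (95% interval -0.15 to 0.20), -0.10 in BrM2 against Par (-0.27 to 0.08) and -0.12 in BrM2 against LM2 (-0.29 to 0.05), none of which passed.

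The promoters of ITGA2 and ITGA5, the collagen and the fibronectin receptor subunits, had the smallest ranges of line means of all 10 (0.07 and 0.06 on the log2 scale). ITGA2 (chr5:52283627-52288319) held 98.6 and 108 CPM in Par and 93.6 and 98.7 in LM2, with 109 and 105 in BrM2, so BrM2 lay above LM2 and overlapped Par. ITGA5 (chr12:54810882-54813736) held 78.8 and 85.5 CPM in Par, 81.2 and 81.7 CPM in LM2 and 81.2 and 85.6 CPM in BrM2, and all 3 lines overlapped. With the block the 95% intervals of the 3 differences at ITGA5 lay between -0.33 and 0.29, and those at ITGA2 between -0.33 and 0.30.

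ITGB1, the partner of most alpha subunits, had the most reads per peak of the beta subunits. Its peak (chr10:33242320-33248699) held 282 and 224 CPM in Par and 272 and 210 in LM2, with 239 and 195 in BrM2. Replicate 1 was the higher library in every line, and the lines overlapped. With the block BrM2 was lower than Par by a log2 difference of -0.28 (SE 0.09, adjusted p = 0.0173) and lower than LM2 by -0.24 (SE 0.09, adjusted p = 0.044). With library totals as size factors and the block, both calls at ITGB1 were lost (adjusted p = 0.122 and 0.343), and with 5 Mb windows and the block only the first was kept (adjusted p = 0.0229). When 1 library was left out, each call was kept only without BrM2 replicate 2.

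Among the partners of ITGAV, ITGB8, whose heterodimer activates latent TGF-beta, was the 1 promoter that rose in LM2 with the block in DESeq2. Its peak (chr7:20368894-20372050) held 86.3 and 83.9 CPM in Par, 130 and 114 CPM in LM2 and 115 and 87.0 CPM in BrM2. In CPM both LM2 libraries and both BrM2 libraries lay above Par, and LM2 and BrM2 overlapped. The log2 difference of LM2 from Par at ITGB8 was 0.56 (SE 0.36, adjusted p = 0.846) without the block and 0.54 (SE 0.13, 95% interval 0.28 to 0.80, adjusted p = 0.000764) with it. With the block it was 0.45 within 5 Mb windows (adjusted p = 0.0278) and 0.51 with library totals (adjusted p = 0.00368), but the call was lost without Par replicate 1, LM2 replicate 1 or LM2 replicate 2 (highest adjusted p = 0.395). BrM2 was lower than LM2 at ITGB8 by -0.38 with the block (SE 0.13, adjusted p = 0.0176), a call that was lost with library totals (adjusted p = 0.128) and with 5 Mb windows, and was kept in 1 of 6 fits that left out a library.

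ITGB5, a vitronectin receptor subunit, was lower in BrM2 than in LM2 with the block. Its peak (chr3:124603908-124607007) held 158 and 118 CPM in Par and 179 and 129 in LM2, with 139 and 96.3 in BrM2, and replicate 1 was the higher library in every line. Within each replicate number the order was LM2, Par, BrM2, although the lines overlapped when the numbers were pooled. The log2 difference of BrM2 from LM2 at ITGB5 was -0.49 (SE 0.41, adjusted p = 0.822) without the block, ranging from -0.026 without LM2 replicate 1 to -0.93 without BrM2 replicate 1, and -0.49 (SE 0.11, 95% interval -0.70 to -0.27, adjusted p = 0.000148) with it. With the block it was -0.39 both within 5 Mb windows (adjusted p = 0.0176) and with library totals (adjusted p = 0.00716), and the call was lost without LM2 replicate 1 or LM2 replicate 2 (highest adjusted p = 0.158). The 28 other H3K4me3 peaks within 2.5 Mb of ITGB5 had a median log2 difference of -0.22, so the neighbourhood was lower too. BrM2 was also lower than Par at ITGB5 with the block (-0.31, adjusted p = 0.0382), which was lost with 5 Mb windows, with library totals (adjusted p = 0.165) and without any 1 of the 6 libraries.

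The other 2 genes of the RGD group did not pass with the block in DESeq2. ITGAV (chr2:187453959-187457039), the alpha subunit that the 3 beta subunits share, held 99.4 and 94.4 CPM in Par, 114 and 94.0 CPM in LM2 and 91.5 and 86.1 CPM in BrM2. In CPM BrM2 lay below both other lines. Its log2 difference from LM2 at ITGAV was -0.34 without the block and -0.31 with it (adjusted p = 0.0732), and -0.45 with the block and 5 Mb windows (adjusted p = 0.0171). ITGB3, the platelet and endothelial beta subunit, held 60.2 and 42.4 CPM in Par and 72.3 and 55.0 in LM2, with 69.4 and 49.4 in BrM2. The lines overlapped, and with the block LM2 differed from Par at ITGB3 by 0.35 (SE 0.16, adjusted p = 0.133).

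**Figure D2:**
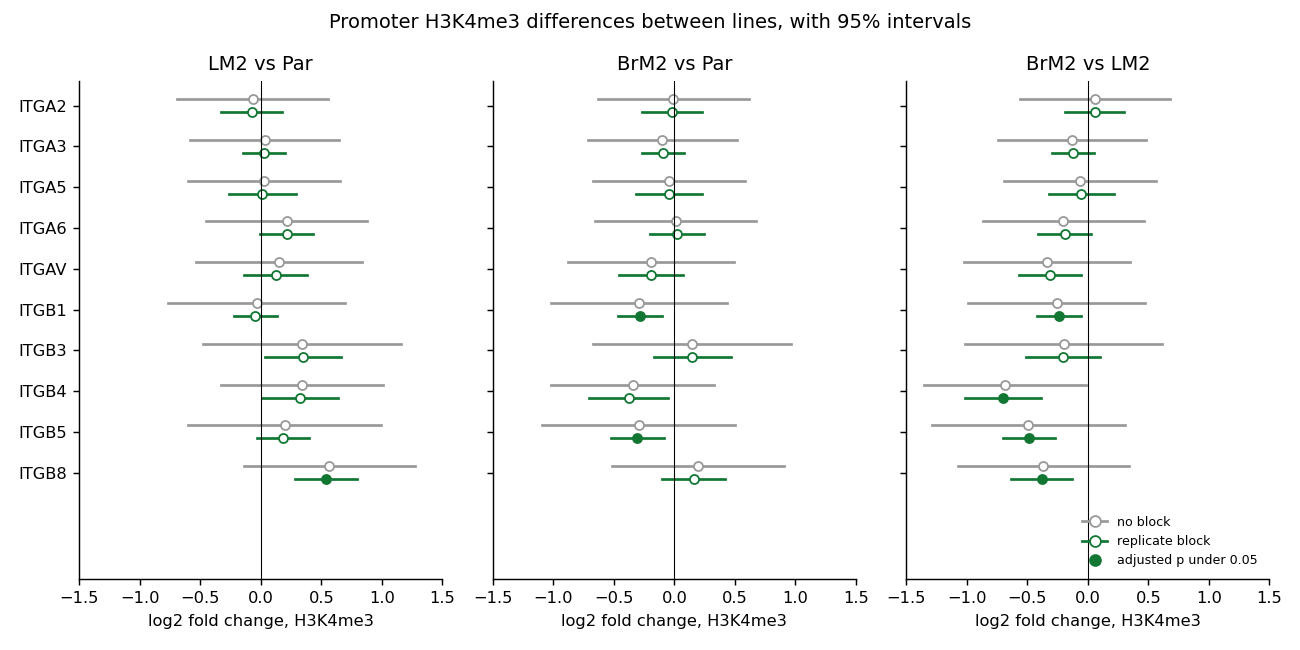
Log2 differences in promoter H3K4me3 (horizontal axes) for each integrin gene (vertical axis) in the 3 comparisons, with 95% intervals, from DESeq2 without (gray) and with (green) the replicate block; filled points have an adjusted p under 0.05. The estimates of the 2 fits lie close together and the intervals are narrower with the block, with 4 promoters called in BrM2 against LM2, all below 0.

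Such calls were common among peaks of like depth. The mean normalized counts of the 10 promoters ran from 339.9 to 1518, and among the 6685 H3K4me3 peaks with at least the lowest of these, 10.3% rose in LM2 against Par with the block, 19.5% fell in BrM2 against Par and 26.2% fell in BrM2 against LM2. The median log2 difference of these deep peaks in BrM2 against LM2 was -0.14, against -0.22 for the 10 integrin promoters in the same fit. By libraries alone, 3 integrin promoters were higher in LM2 than in Par with no overlap of CPM (ITGA6, ITGB4 and ITGB8; 19.1% of all peaks) and none was lower (12%). In BrM2 against Par, 1 was higher (ITGB8; 21.4%) and 3 were lower (ITGA3, ITGAV and ITGB4; 14.1%). In BrM2 against LM2, 1 was higher (ITGA2; 19.5%) and 3 were lower (ITGA3, ITGAV and ITGB4; 17.5%). Most of these separations depend on scaling to library totals. With counts divided by the size factors used in the tests, only ITGB4 in each comparison and ITGB8 in LM2 against Par stayed separated. ITGA6, for example, then had 1000 and 721 in LM2 against 860 and 624 in Par.

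The promoters most like that of ITGB4 over the 6 libraries were searched among 11484 others, since ITGB4 had the largest range of line means (0.70 on the log2 scale). They were SYTL2 (Pearson r = 0.994), OLFML2B (0.993) and CLCN5 (0.993). SYTL2 held 34.4 and 36.9 CPM in Par, 43.6 and 44.1 CPM in LM2 and 29.7 and 26.1 CPM in BrM2. OLFML2B held 49.9 and 49.6, then 66.1 and 64.0, then 40.8 and 32.6 in the same order. The 6 points share the same library depths, and no test was made.

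More H3K27ac peaks were assigned to the integrin genes than to most genes. By the rule used, this count also depends on how near other genes start, which was not adjusted for. The 10 genes had a median of 7.5 assigned peaks against 2 over 13669 genes with an H3K4me3 promoter peak, and 9 of 10 were above that median. Of the 73 peaks, 10 overlapped a start as defined above and 63 lay more than 2 kb from one, 42 of these within the extent of the integrin gene and 21 outside it. The peaks of ITGB1 at -48.7 kb and of ITGB5 at -14 kb overlap the upstream end of their gene's whole annotated extent, which is not the start of a transcript used here. By annotation 33 were in introns, 13 overlapped exons and 17 were intergenic. Nearness does not show which gene a region acts on: 3 of the peaks assigned to ITGA2 lie inside its neighbour ITGA1, the peak of ITGB4 at -26.7 kb lies over SAP30BP, and 7 of those of ITGB3 lie under an overlapping gene model.

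**Figure D3:**
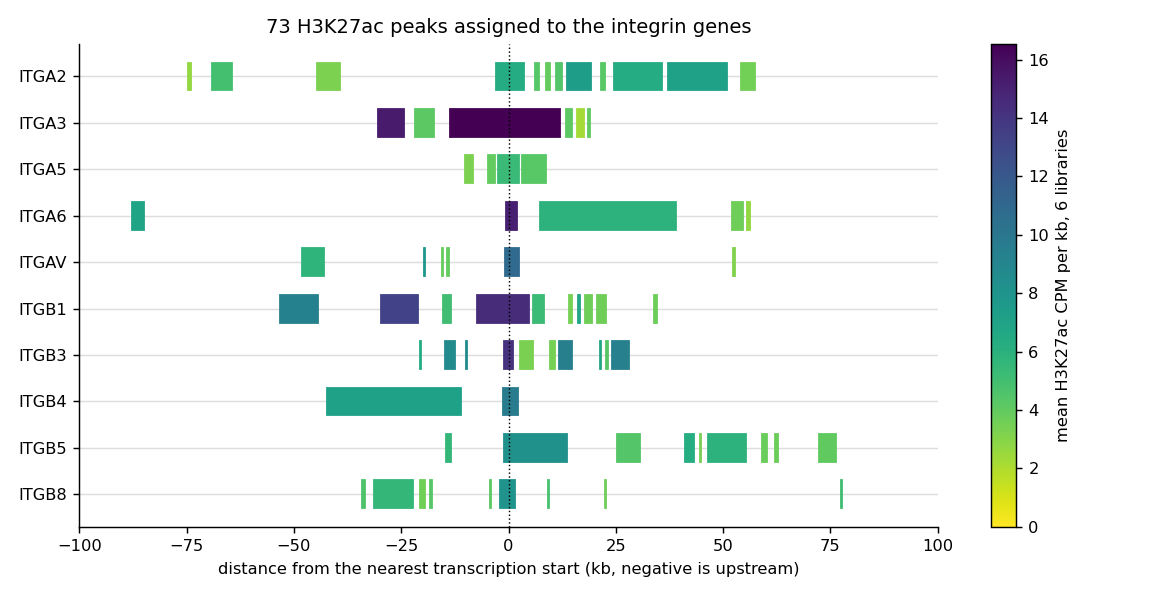
Positions of the 73 H3K27ac peaks relative to the nearest start of each integrin gene in kb (horizontal axis, upstream negative) by gene (vertical axis), each drawn to its length and colored by its mean CPM per kb over 6 libraries. Long domains stand over the start of ITGA3, downstream of ITGA6 and upstream of ITGB4.

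The genes differed in where their H3K27ac lay. ITGA3 had it over the start, in a peak of 25.7 kb (chr17:48119778-48145495) with 328 and 448 CPM in Par and 426 and 506 in LM2, with 386 and 457 in BrM2. ITGA6 had most of it inside the gene, in a peak of 31.5 kb at +23.2 kb (chr2:173299702-173331235) with 175 and 177 CPM in Par, 181 and 193 CPM in LM2 and 210 and 185 CPM in BrM2. The lines overlapped or lay close together at both. ITGB4 had a peak of 31.1 kb upstream, at -26.7 kb (chr17:73675322-73706409), and 1 other peak at its start. In all, 7 of the 73 peaks were at least 10 kb long, 32 averaged 50 or more normalized counts and 29 averaged under 20, so that small differences at the last could not be seen at this depth. Per kb, H3K27ac at the start was highest at ITGA3 (16.5 CPM) and ITGA6 (15.1) and lowest at ITGA2 (6.34) and ITGA5 (5.35).

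None of the 73 H3K27ac peaks passed in DESeq2 without the block, while 3.63%, 5.29% and 2.94% of all peaks tested did in LM2 against Par, BrM2 against Par and BrM2 against LM2. At an unadjusted p of 0.05, 2, 6 and 3 passed (10.9%, 13.7% and 10.8% of all peaks), and edgeR without the block called 1, 0 and 0, against 5.14%, 6.88% and 3.89% of all peaks. The 1 was a weak peak of ITGB1 at -14.3 kb, with 16.2 and 15.1 CPM in Par and 6.05 and 7.71 in LM2, with 8.92 and 6.01 in BrM2. With the block DESeq2 called 0, 1 and 1, against 5.44%, 8.13% and 6.17% of all peaks, and edgeR called 3, 9 and 6, against 13.2%, 15.9% and 12.5%. By libraries alone, 14 integrin peaks were higher and 12 lower in LM2 than in Par with no overlap of CPM (24.7% and 18.3% of all peaks). In BrM2 against Par 8 were higher and 22 lower (24.8% and 25.6%), and in BrM2 against LM2 4 were higher and 28 lower (20% and 27.2%). The median log2 difference of the 73 was -0.05 in LM2 against Par (all peaks -0.02), -0.12 in BrM2 against Par (-0.02) and -0.12 in BrM2 against LM2 (-0.02), with single peaks from -1.75 to 1.84.

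Both peaks of ITGB4 were lowest in BrM2. The upstream domain at -26.7 kb held 188 and 250 CPM in Par, 251 and 280 CPM in LM2 and 177 and 181 CPM in BrM2. The start (chr17:73716327-73719852) held 35.1 and 41.0 CPM in Par and 43.9 and 38.8 in LM2, with 24.5 and 21.6 in BrM2, with no overlap of BrM2 with either line. At the ITGB4 start the log2 difference of BrM2 was -0.77 from LM2 (SE 0.32, adjusted p = 0.217 without and 0.0902 with the block) and -0.71 from Par (adjusted p = 0.229 and 0.118). At the ITGB4 domain it was -0.50 from LM2 (SE 0.26, adjusted p = 0.38 without and 0.082 with the block), and with the block and library totals this reached -0.56 (adjusted p = 0.0378). H3K27ac summed over both ITGB4 peaks was 202 CPM in BrM2 (mean of 2 libraries) against 307 in LM2. Most of this sum, 179 in BrM2 and 266 in LM2, was from the upstream domain, which lies over SAP30BP and not over ITGB4.

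H3K27ac summed over the 9 ITGB8 peaks was lowest in BrM2 as well, at 63.5 CPM against 101 in Par and 107 in LM2. This was opposite in sign to its promoter H3K4me3 in the comparison with Par. Not every peak followed the sum: weak peaks at -33.8 kb and +77.6 kb were lowest in LM2 and in Par. In that comparison no ITGB8 peak of either mark passed in DESeq2 with or without the block. The peak at -26.9 kb (chr7:20339133-20348166, intergenic) held 67.3 and 39.9 CPM in Par, 72.6 and 52.7 CPM in LM2 and 41.8 and 27.6 CPM in BrM2. Replicate 1 was higher in each line and BrM2 lay below LM2 in both libraries. The log2 difference of BrM2 from LM2 at ITGB8 was -0.77 (adjusted p = 0.287) without the block and -0.79 (SE 0.25, 95% interval -1.29 to -0.30, adjusted p = 0.0337) with it, -0.86 with the block and library totals (adjusted p = 0.0164), and it was lost with 5 Mb windows and in each of the 6 fits that left out a library. The start of ITGB8 held 43.3 and 22.4 CPM in Par and 31.3 and 29.5 in LM2, with 22.4 and 13.0 in BrM2, a log2 difference of -0.86 from Par (adjusted p = 0.254 without and 0.0997 with the block). BrM2 replicate 2, the lowest value, was also the library with the fewest counts.

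The peak of ITGB8 at -26.9 kb held 2 matches to TGANTCA, the motif of AP-1 factors, and both are shown with 20 bases on each side because this is the integrin H3K27ac region that DESeq2 with the block called lower in BrM2 than in LM2. They lie at chr7:20341419-20341465 and chr7:20346443-20346489 on hg19, plus strand, with the match in capitals.
ITGB8 first match: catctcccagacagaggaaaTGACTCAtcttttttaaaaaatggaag
ITGB8 second match: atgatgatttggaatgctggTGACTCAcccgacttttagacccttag

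AP-1 matches were not denser in the integrin peaks than elsewhere, with 131 matches in the 73 peaks, 0.431 per kb against 0.441 per kb over all H3K27ac peaks, and 36 peaks held at least 1. GC boxes were at 0.398 per kb against 0.81 per kb. The ITGB8 peak at -26.9 kb, whose matches are shown, held 0.221 AP-1 matches per kb, fewer than either. The peak of ITGB5 at +50.8 kb held 5 AP-1 matches and that of ITGA2 at +16.5 kb held none.

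**Figure D4:**
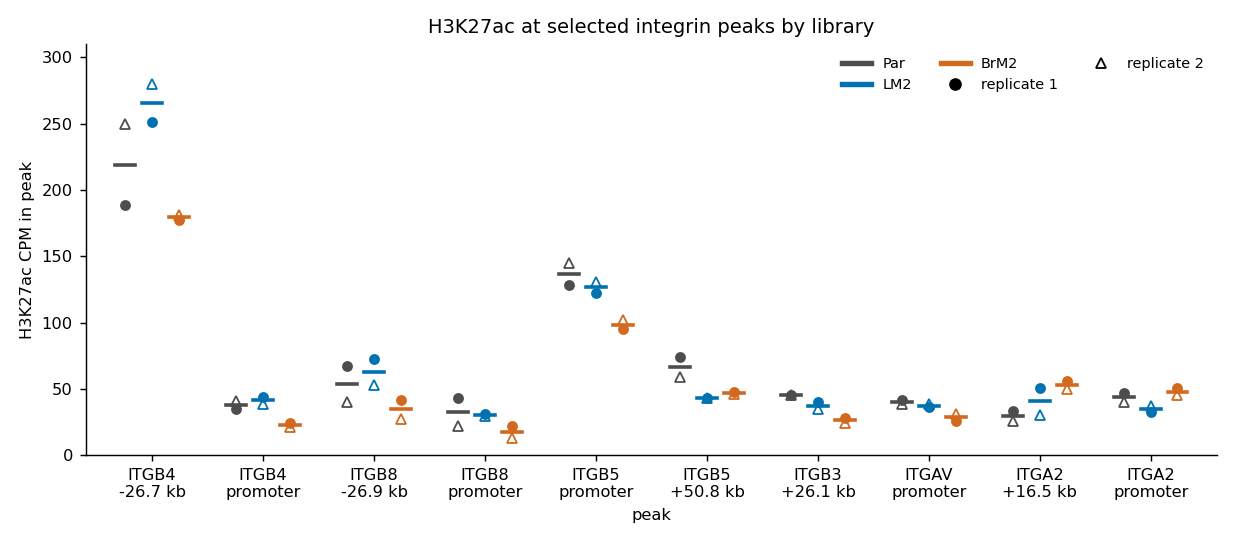
H3K27ac in CPM (vertical axis) at 10 peaks of 6 integrin genes (horizontal axis), some of them chosen after their values were seen, with 1 point per library (circles, replicate 1; triangles, replicate 2) and bars for the mean of each line. The mean of BrM2 is lowest at both peaks of ITGB4 and ITGB8 and highest at ITGA2 +16.5 kb, where its replicate 2 (49.6) lies just under LM2 replicate 1 (50.5).

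ITGA2 held the 1 integrin H3K27ac peak that rose in BrM2 against Par with the block in DESeq2. Its intronic peak at +16.5 kb (chr5:52298904-52304442) held 33.8 and 25.8 CPM in Par, 50.5 and 30.6 CPM in LM2 and 56.3 and 49.6 CPM in BrM2, so both BrM2 libraries lay above Par and 1 of them above both LM2 libraries. The log2 difference of BrM2 from Par at ITGA2 was 0.83 (SE 0.34, adjusted p = 0.15) without the block and 0.84 (SE 0.27, 95% interval 0.31 to 1.37, adjusted p = 0.0297) with it. The call was kept with library totals, and was lost with 5 Mb windows and in each of the 6 fits without a library (lowest adjusted p = 0.0582). The 27 other H3K27ac peaks within 2.5 Mb of ITGA2 had a median of 0.28 in the same comparison, 21 of them above 0. The start of ITGA2 held 47.2 and 39.9 CPM in Par and 32.6 and 37.2 in LM2, with 50.7 and 45.1 in BrM2, and 9 of the 12 ITGA2 peaks were above 0 in BrM2 against Par.

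H3K27ac of ITGB3 and ITGB5 leaned lower in both metastatic lines, without any peak called in DESeq2 with or without the block when size factors were set genome-wide. Of the 10 ITGB3 peaks, 9 were below 0 in LM2 against Par and 9 in BrM2 against Par, and their summed CPM was 157 in Par, 140 in LM2 and 116 in BrM2. The largest, at +26.1 kb, held 45.2 and 45.4 CPM in Par, 39.8 and 34.6 CPM in LM2 and 28.3 and 24.6 CPM in BrM2. The 3 lines did not overlap at this ITGB3 peak, and BrM2 differed from Par by -0.77 (adjusted p = 0.157 without and 0.0605 with the block). Summed CPM over the 9 ITGB5 peaks was 279 in Par, 238 in LM2 and 205 in BrM2. The start of ITGB5 held 128 and 145 CPM in Par and 122 and 131 in LM2, with 94.8 and 102 in BrM2, -0.47 from Par (adjusted p = 0.368). Its intronic peak at +50.8 kb held 73.9 and 59.0 CPM in Par, 43.4 and 42.8 CPM in LM2 and 47.4 and 46.1 CPM in BrM2, with Par above both lines. LM2 differed from Par at this ITGB5 peak by -0.69 (adjusted p = 0.205), and with the block and 5 Mb windows this was the only integrin H3K27ac peak called.

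No difference passed at the remaining starts. The start of ITGB1 held 180 and 174 CPM in Par and 181 and 190 in LM2, with 146 and 179 in BrM2. The start of ITGAV held 41.5 and 38.6 CPM in Par, 36.1 and 38.3 CPM in LM2 and 26.0 and 31.1 CPM in BrM2, with BrM2 below both lines. The start of ITGA5 held 21.9 and 28.2 CPM in Par and 19.4 and 25.8 in LM2, with 24.7 and 30.1 in BrM2. At the start of ITGA6 the 6 libraries lay between 38.0 and 40.5 CPM.

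At the 10 starts, both marks were compared as differences between lines. In BrM2 against LM2, 8 of 10 genes had the same sign in both marks, and the values were correlated across genes (Pearson r = 0.906, Spearman rho = 0.915, n = 10 genes), with ITGB4 lowest in both. In LM2 against Par 3 of 10 had the same sign (r = 0.05) and in BrM2 against Par 4 of 10 (r = 0.12). The genes are not independent replicates and the differences for all genes rest on the same libraries, so no p is given. ITGB8 lay apart from the others in BrM2 against Par, with H3K4me3 at 0.20 and H3K27ac at -0.86. Neither passed in DESeq2 with or without the block, and the H3K4me3 value ran from -0.16 to 0.52 when 1 library was left out.

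**Figure D5:**
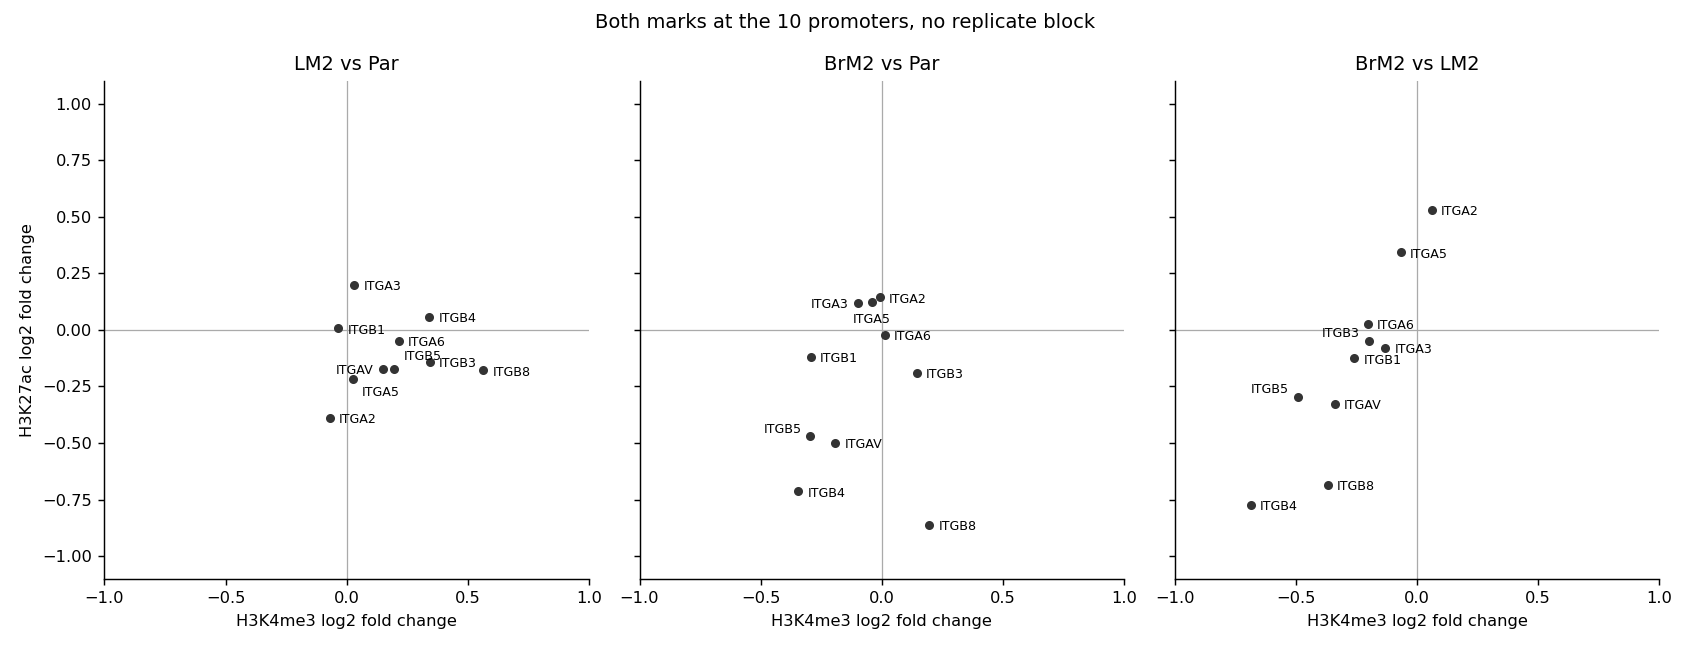
Log2 differences at the starts of the 10 integrin genes in H3K4me3 (horizontal axes) and H3K27ac (vertical axes) for the 3 comparisons, from DESeq2 without the block, with 1 point per gene. In BrM2 against LM2 the points run from ITGB4 at the lower left to ITGA2 at the upper right, and in the other comparisons they show no such line.

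The wider adhesion pathway was described through 80 other genes, of which 62 had a promoter H3K4me3 peak and 74 an assigned H3K27ac peak. Without the block, of their 71 promoter peaks 0 rose and 0 fell in LM2 against Par (1.97% and 0.538% of all H3K4me3 peaks), 1 rose and 0 fell in BrM2 against Par (2.82% and 0.791%) and 3 rose and 0 fell in BrM2 against LM2 (2.05% and 1.13%). With the block 6 rose and 6 fell in LM2 against Par (8.9% and 5.49%), 9 rose and 15 fell in BrM2 against Par (8.55% and 9.11%) and 8 rose and 12 fell in BrM2 against LM2 (8.99% and 13%). Of their 460 H3K27ac peaks, without the block 6 rose and 1 fell in LM2 against Par (2.72% and 0.907% of all H3K27ac peaks), 9 rose and 6 fell in BrM2 against Par (3.62% and 1.67%) and 5 rose and 4 fell in BrM2 against LM2 (1.71% and 1.22%). With the block these were 7 and 5 (3.6% and 1.84%), 13 and 11 (5.14% and 2.99%) and 13 and 9 (3.65% and 2.52%). The shares are over peaks that received an adjusted p, while the 460 are all assigned peaks, so counts and shares are not on the same basis.

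Of the 16 other integrin subunits 4 had a promoter H3K4me3 peak (ITGA1, ITGA7, ITGA9 and ITGB2). ITGB2, the beta subunit of leukocyte integrins, held 2.87 and 7.60 CPM in Par, 2.98 and 5.18 CPM in LM2 and 19.4 and 38.0 CPM in BrM2, a log2 difference of 2.36 from Par (adjusted p = 0.000398) and 2.70 from LM2 (adjusted p = 2.25e-05). H3K27ac at the ITGB2 start rose too, by 1.20 from Par (adjusted p = 0.000651) and 1.12 from LM2 (adjusted p = 0.00288). ITGAE, the alpha subunit of an E-cadherin receptor, had no promoter H3K4me3 peak by this rule but 3 H3K27ac peaks that rose in LM2 against Par, the strongest with 7.30 and 7.05 CPM in Par and 43.9 and 35.6 in LM2, with 23.2 and 23.6 in BrM2 (2.41 from Par in LM2, adjusted p = 5.56e-08). An upstream peak of ITGB6, another epithelial beta subunit that pairs with ITGAV, fell in BrM2 against Par (-0.99, adjusted p = 0.0463).

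Of the 11 adhesion signalling genes, all had a promoter H3K4me3 peak, and H3K27ac peaks of the kinases SRC (1.22 from Par, adjusted p = 0.0258, and 1.51 from LM2, adjusted p = 0.00452) and PTK2, the focal adhesion kinase (1.28, adjusted p = 0.00528, and 1.77, adjusted p = 4.8e-05), rose in BrM2. A peak of FYN rose in LM2 against Par (2.75, adjusted p = 9.32e-07). The H3K27ac peaks of RAPGEF1, an exchange factor for RAP1, fell in BrM2 against Par at 3 regions (-1.13 to -1.55). Of 2 promoter H3K4me3 peaks of RAP1A, 1 rose in BrM2 against LM2 (1.84, adjusted p = 0.000597). Both RAP1A peaks together held 97.5 and 97.5 CPM in LM2 and 122 and 119 in BrM2. The whole promoter signal was thus higher in BrM2 too, but by much less than the called peak. Among 16 activators and linkers to actin, 14 had a promoter peak. TNS3, a tensin, had a peak that fell in LM2 against Par (-1.74, adjusted p = 0.017) and rose in BrM2 against LM2 (2.40, adjusted p = 0.000225), and a peak of ACTN1, alpha-actinin, fell in BrM2 against LM2 (-1.62, adjusted p = 0.0334).

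Of 10 partners at the membrane, 9 had a promoter peak. An H3K27ac peak of CD9, a tetraspanin, rose in LM2 against Par (2.48, adjusted p = 0.0435) and was lower in BrM2 than in LM2 (-3.89, adjusted p = 0.0152), at 0.51 and 0.50 CPM in BrM2, which is a few reads. A distal peak of SDC1, a syndecan, rose in LM2 against Par (1.72, adjusted p = 0.00848) and was lower in BrM2 than in LM2 (-1.53, adjusted p = 0.0403), and another rose in BrM2 against Par (1.19, adjusted p = 0.0222). Of 18 extracellular ligands, 16 had a promoter peak. H3K27ac peaks of the laminin genes LAMA1 (2.33, adjusted p = 0.0303, and 2.79, adjusted p = 0.00199) and LAMB1 (1.33, adjusted p = 0.00458) rose in BrM2 against Par. H3K4me3 at the LAMA1 start was near the floor, at 0 and 0.61 CPM in LM2 and 6.77 and 6.32 in BrM2 (4.11, adjusted p = 0.00211). A peak of EDIL3, a ligand with an RGD sequence, fell in BrM2 against Par (-1.26, adjusted p = 0.0421). Of 9 genes of integrin trafficking and inhibition, 8 had a promoter peak, and 1 H3K27ac peak of RAB4A, a recycling GTPase, fell in BrM2 against LM2 (-2.93, adjusted p = 0.0354). All adjusted p in these lists are from DESeq2 without the block, over all peaks of the mark.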

How the data were processed

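H3K4me3 and H3K27ac ChIP-seq of Par, LM2 and BrM2 cells was analysed from the raw counts per peak that the authors deposited for 12 libraries. Per the labels and the study's methods, reads were trimmed with Trimmomatic 0.32, aligned to hg19 with Bowtie2 2.3.4.3, deduplicated with Picard 2.18.21 and counted with featureCounts 1.6.0 over consensus peaks called with MACS2 2.1.2 on merged libraries, so that a peak is present for every line. CPM was computed as the count over the library total in peaks.

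Counts were tested with DESeq2 1.42.0 (R 4.3.3): Wald test on cell line, the 6 libraries of a mark in 1 fit, median-of-ratios size factors, Benjamini-Hochberg adjustment over all peaks of the mark, and adjusted p under 0.05. The scripts were tested on simulated data. The study's methods give no replicate term, so the fit without a block was set as the main one. The titles give each library a replicate number. Deviations of same-numbered libraries from their line means correlated at 0.837, 0.784 and 0.820 (H3K4me3) and 0.400, 0.593 and 0.471 (H3K27ac) for the pairs of lines Par with LM2, Par with BrM2 and LM2 with BrM2, over 13680 and 21281 peaks, so the numbers were taken to pair the samples, and blocked values are given where they change a call. The labels name no shared batch behind a number. Alternatives were edgeR 4.0.16, TMM scaling, a filter at a mean count of 10, size factors by chromosome or 5 Mb window, and leaving out each library. Library totals as size factors, and the block combined with windows, totals or left-out libraries, were added after the data were seen.

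The members and gene lists were chosen with earlier results of these data known. Peaks named are, per gene and mark, the one with the highest mean normalized count, called peaks, the 10 starts, and ITGA2 +16.5 kb, ITGB5 +50.8 kb and ITGB1 -14.3 kb, which were picked after their values were seen. From the lists, called peaks with the largest differences are named. Genomic positions and sequences are of hg19. Some sequences and listed genes of the lists are not reported here.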

Additional observations from a re-analysis of the deposited data

Results flagged for a closer look

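With the replicate block, BrM2 and LM2 differed from each other in their change from Par at 4 of 10 promoters and 1 of 73 H3K27ac peaks, a distal region. This was a test of the difference itself (DESeq2, adjusted p under 0.05). The same test called 22% of all H3K4me3 peaks and 6.17% of all H3K27ac peaks. For promoter H3K4me3 the log2 differences of BrM2 from LM2 were -0.24 at ITGB1, -0.7 at ITGB4, -0.49 at ITGB5 and -0.38 at ITGB8. For H3K27ac the difference was -0.79 at ITGB8 -26.9 kb. The BrM2 value was the lower one in all 5. Among H3K4me3 peaks at least as deep as the shallowest integrin promoter, 26.2% fell and 8.62% rose in this comparison. Without the block none of the 5 passed, and with the block and library totals as size factors ITGB4, ITGB5 and ITGB8 -26.9 kb passed while ITGB1 and the ITGB8 promoter did not. With the block and 5 Mb windows in DESeq2, ITGB4 and ITGB5 passed. There ITGB1 (adjusted p = 0.0805), the ITGB8 promoter (adjusted p = 0.0918) and ITGB8 -26.9 kb (adjusted p = 0.0607) did not. The cause was not tested.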

How the results depend on the processing

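With 2 libraries per line and mark the p-values rest on few degrees of freedom, and 29 of the 73 H3K27ac peaks have under 20 normalized counts. No integrin promoter or region was called by DESeq2 without the block, and none under every setting. For H3K4me3 in LM2 against Par, BrM2 against Par and BrM2 against LM2, DESeq2 with the replicate block called 1, 2 and 4 members, edgeR with the block 2, 3 and 6, the block with 5 Mb windows 1, 1 and 3 (8.41%, 9.99% and 12.3% of all peaks), and the block with library totals 1, 0 and 2 (13.2%, 16.7% and 19.4%). For H3K27ac these were 0, 1 and 1 with the block, 3, 9 and 6 with edgeR and the block, 1, 0 and 0 with the block and 5 Mb windows (3.73%, 6.34% and 2.94%), and 0, 1 and 2 with the block and library totals (5.66%, 8.94% and 5.61%), and edgeR without the block called 1, 0 and 0. Leaving out 1 library, with or without the block, gave 0 to 1, 0 to 1 and 0 to 3 H3K4me3 calls and no H3K27ac call. TMM scaling, the filter on low counts, gene 5′ ends as starts, H3K4me3 peaks that overlap a start and H3K27ac peaks within 25 kb were run without the block, where each count stayed at 0.

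No value that reversed passed under the setting that reversed it (lowest adjusted p = 0.87), though 3 of the differences concerned were called with the block: without the block, the H3K4me3 difference reversed on leaving out a library at ITGB1 in both comparisons of BrM2 and at ITGB5 in BrM2 against Par. Size factors within 5 Mb windows gave H3K4me3 -0.0096 for ITGA3 in LM2 against Par and 0.073 for ITGA5 in BrM2 against Par, and H3K27ac 0.043 for the ITGB1 promoter in BrM2 against Par, and -0.0043 for ITGA6 +23.2 kb and 0.022 for the ITGB1 promoter in BrM2 against LM2. With the replicate block and these windows the values were -0.013 for ITGA3, 0.057 for ITGA5, and 0.027 and 0.016 for the ITGB1 promoter. Library totals gave H3K4me3 -0.0026 for ITGA3 and -0.013 for ITGA5 in LM2 against Par, 0.048 for ITGA2 and 0.021 for ITGA5 in BrM2 against Par and 0.034 for ITGA5 in BrM2 against LM2, and with the block -0.0032, -0.015, 0.045, 0.021 and 0.036 in the same order. edgeR with the block gave -0.0063 for ITGA5 in LM2 against Par and -0.0055 for ITGA6 in BrM2 against Par, where edgeR without it gave -0.0016 and TMM scaling -0.0015. Size factors within chromosomes gave 0.081 for ITGB1 in LM2 against Par and -0.17 for ITGA6 in BrM2 against Par (H3K4me3), and -0.0079, -0.080 and -0.072 for H3K27ac of ITGA6 +23.2 kb in the 3 comparisons. The cause was not tested.

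Leaving out 1 library, with or without the block, moved the H3K4me3 difference of LM2 from Par over -0.22 to 0.054 for ITGA2, -0.18 to 0.20 for ITGA3, -0.17 to 0.18 for ITGA5, -0.052 to 0.46 for ITGA6, -0.21 to 0.42 for ITGAV, -0.45 to 0.32 for ITGB1, -0.086 to 0.80 for ITGB3 and -0.29 to 0.61 for ITGB5. For BrM2 against Par it ran over -0.16 to 0.17 for ITGA2, -0.24 to 0.055 for ITGA3, -0.13 to 0.073 for ITGA5, -0.20 to 0.24 for ITGA6, -0.58 to 0.042 for ITGB1, -0.26 to 0.58 for ITGB3, -0.73 to 0.095 for ITGB5 and -0.16 to 0.52 for ITGB8. For BrM2 against LM2 it ran over -0.092 to 0.24 for ITGA2, -0.30 to 0.064 for ITGA3, -0.23 to 0.11 for ITGA5, -0.41 to 0.048 for ITGA6, -0.62 to 0.0028 for ITGAV, -0.57 to 0.14 for ITGB1 and -0.61 to 0.21 for ITGB3. For H3K27ac of LM2 against Par the ranges were -0.37 to 0.090 for ITGA2 +44.0 kb, -0.010 to 0.44 for the ITGA3 promoter, -0.45 to 0.0030 for the ITGA5 promoter, -0.076 to 0.13 for ITGA6 +23.2 kb, -0.12 to 0.13 for the ITGB1 promoter, -0.16 to 0.58 for ITGB8 -26.9 kb and -0.0046 to 0.68 for ITGA2 +16.5 kb. For BrM2 against Par they were -0.087 to 0.37 for the ITGA3 promoter, -0.048 to 0.32 for the ITGA5 promoter and -0.27 to 0.033 for the ITGB1 promoter, and for BrM2 against LM2 -0.22 to 0.064 for the ITGA3 promoter and -0.27 to 0.024 for the ITGB1 promoter. A fit that leaves a line with 1 library assumes that it varies like the others.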
